A study of Mus musculus with 4 samples.

Results

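Hypoxia-induced genes outside glycolysis were examined in mouse embryonic stem cells (mESCs) with and without the chromatin remodeler SNF2L. The group is a list of 10 known targets of the hypoxia-inducible factors (HIFs), among 24594 genes of the deposited table: Bnip3, Bnip3l, Ndufa4l2, Egln1, Egln3, Vegfa, Ankrd37, Ddit4, P4ha1 and Kdm3a. The genes were chosen by function, with their counts in these 4 libraries and the difference between genotypes already known, so this difference is described for the 10 genes and is not tested as evidence about them. Poly(A) RNA was sequenced from mESCs of the 129S6/SvEvTac line, in duplicate for the wild type (WT, 2 libraries) and for a Snf2l knockout (2 libraries). Snf2l is the gene Smarca1, which encodes an ATPase of the ISWI family. The labels give no treatment for either genotype and place all libraries in 1 batch. According to the methods, both genotypes grew on gelatin in serum with leukemia inhibitory factor. One clone obtained by Cas9 editing represented each deletion there, so that genotype and clone cannot be told apart. No oxygen level is given in the sources used here.

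HIFs are dimers of an oxygen-labile alpha subunit and the stable partner ARNT. When oxygen is available, prolyl hydroxylases of the EGLN family modify the alpha subunit, which is then bound by the VHL ubiquitin ligase and degraded. When oxygen is low the alpha subunit accumulates, the dimer binds short DNA elements with the core ACGTG or GCGTG, and target genes are transcribed. Targets outside glycolysis include the EGLN enzymes themselves, receptors for the removal of mitochondria, angiogenic ligands and enzymes that use oxygen as a substrate.

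The libraries held between 13771642 and 15608803 counts. Smarca1 had WT counts of 620 and 626 and knockout counts of 37 and 31, which matched the labels. Pluripotency genes were abundant, with summed levels of 4864 and 5213 counts per 1000000 (CPM) in WT and 5207 and 5416 in the knockout. Of 10 such markers, 1 (Klf4) was higher and 1 (Zfp42, on chromosome 8) was lower in edgeR with p-values adjusted over 13840 genes (threshold 0.05), where 4.0% of all genes were higher and 5.21% lower. The call of Klf4 was lost with DESeq2, a filter of at least 1 count, the shift of chromosome 8 removed, or without WT replicate 1, WT replicate 2 or knockout replicate 1, and that of Zfp42 with the shift removed. Some markers of other cells also differed between genotypes. The summed level of 8 fibroblast markers was 12.7 and 15.4 CPM in WT and 28.5 CPM in both knockout libraries. Of their 6 tested members 2 were higher (Col1a1 and Col3a1), while Dcn and Lum had 3 counts or fewer in every library. The sum of 6 primitive endoderm markers was 6.26 and 7.42 CPM in WT and 10.8 and 12.5 CPM in the knockout, with 2 of 4 tested members higher (Gata4 and Gata6) and Afp at 0 throughout. Both calls were lost with DESeq2 and without WT replicate 1, WT replicate 2 or knockout replicate 2. Among 5 trophoblast markers the sum was 2.64 and 3.20 CPM in WT and 5.04 and 5.79 CPM in the knockout, 1 of 3 tested members was higher (Hand1), and Elf5 and Tpbpa had 3 counts or fewer. The call of Hand1 was lost with DESeq2 and without WT replicate 2. Neural markers summed to 187 and 206 CPM in WT and 139 and 143 CPM in the knockout, with 1 of 5 higher (Neurod1) and 3 lower (Pax6, Tubb3 and Sox1). Tubb3, which made up most of the neural sum, and Sox1 lie on chromosome 8 and were not called with its shift removed. The call of Sox1 was also lost under 3 other settings and without WT replicate 1, WT replicate 2 or knockout replicate 2. Of 6 endothelial and 5 blood markers, 4 and 2 were tested and 0 were called by edgeR or DESeq2, with 0 at an unadjusted p-value under 0.05. Their sums ranged from 114 to 130 CPM and from 6.68 to 9.0 CPM over the 4 libraries. Pecam1, at between 95.9 and 110 CPM, made up most of the endothelial sum, which therefore follows mainly this gene and says little about the other markers. Cdh5, on chromosome 8, had between 10 and 13 counts in each library, and Tie1 and Emcn were not tested. Emcn, Ptprc and Hba-a1 had 3 counts or fewer in every library. The part of these cells in the values below was not tested. In bulk RNA, fewer cells of a type and less RNA per cell cannot be told apart.

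The promoters of the group were read first for the letters to which HIFs bind. RefSeq windows of 300 bases, from 250 before to 50 after a start site (GRCm38.p6, the assembly that mm10 represents), were available for 8 of the 10 genes. Ndufa4l2 and Bnip3l had no entry. All 8 genes held ACGTG or GCGTG on either strand in at least 1 window, and 7 of them held ACGTG. Some genes had more than 1 window, and 8 of the 11 windows of the group held ACGTG or GCGTG. The matches of Vegfa came only from a window inside the gene. Among all 32851 windows, 43.8% held ACGTG or GCGTG and 19.6% held ACGTG, so the presence of a match is common. Windows with 4 or more matches made up 3.86% of all windows. Both cores hold the dinucleotide CG, which occurred 27 times in the Bnip3 window and 24 times in the Ankrd37 window. The median over all windows was 7, and the shares were not taken over windows of like CG content. Matches on both strands of the palindrome CACGTG were counted separately. The following windows are shown because they carry the most matches in the group (Bnip3 and Ankrd37), or belong to the EGLN sensors that are set side by side below (Egln1 and Egln3), or to a gene without overlapping neighbours that was higher in the knockout (Ddit4). Capitals mark the matches, and each sequence is given 5′ to 3′ on the strand of the gene, which is the minus strand in all 5 cases.
Bnip3, chr7:138909457-138909756, 5 matches.
Bnip3: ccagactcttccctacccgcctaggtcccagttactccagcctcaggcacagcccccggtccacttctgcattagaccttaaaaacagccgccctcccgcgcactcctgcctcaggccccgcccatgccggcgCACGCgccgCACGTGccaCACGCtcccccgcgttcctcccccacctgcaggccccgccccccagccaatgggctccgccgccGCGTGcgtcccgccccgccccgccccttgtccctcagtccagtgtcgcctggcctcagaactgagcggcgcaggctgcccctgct
Ankrd37, chr8:45999801-46000100, 4 matches.
Ankrd37: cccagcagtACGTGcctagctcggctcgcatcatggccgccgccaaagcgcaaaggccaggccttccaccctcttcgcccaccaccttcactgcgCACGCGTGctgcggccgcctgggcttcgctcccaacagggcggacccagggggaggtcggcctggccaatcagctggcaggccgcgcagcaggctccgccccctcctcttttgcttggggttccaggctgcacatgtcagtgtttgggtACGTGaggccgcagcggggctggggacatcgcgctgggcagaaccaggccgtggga
Egln1, chr8:124949205-124949504, 2 matches.
Egln1: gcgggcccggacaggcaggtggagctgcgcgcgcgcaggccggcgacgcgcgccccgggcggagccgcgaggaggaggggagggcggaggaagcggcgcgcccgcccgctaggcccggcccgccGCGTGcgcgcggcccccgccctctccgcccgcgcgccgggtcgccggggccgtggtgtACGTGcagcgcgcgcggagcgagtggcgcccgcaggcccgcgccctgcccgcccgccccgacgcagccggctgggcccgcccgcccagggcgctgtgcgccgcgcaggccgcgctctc
Egln3, chr12:54203825-54204124, 1 match.
Egln3: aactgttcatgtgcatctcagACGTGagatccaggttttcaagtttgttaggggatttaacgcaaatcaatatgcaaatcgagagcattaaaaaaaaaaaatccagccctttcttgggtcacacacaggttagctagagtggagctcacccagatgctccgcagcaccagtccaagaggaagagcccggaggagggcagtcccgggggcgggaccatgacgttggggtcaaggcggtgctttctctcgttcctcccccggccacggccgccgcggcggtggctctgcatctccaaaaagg
Ddit4, chr10:59951721-59952020, 2 matches.
Ddit4: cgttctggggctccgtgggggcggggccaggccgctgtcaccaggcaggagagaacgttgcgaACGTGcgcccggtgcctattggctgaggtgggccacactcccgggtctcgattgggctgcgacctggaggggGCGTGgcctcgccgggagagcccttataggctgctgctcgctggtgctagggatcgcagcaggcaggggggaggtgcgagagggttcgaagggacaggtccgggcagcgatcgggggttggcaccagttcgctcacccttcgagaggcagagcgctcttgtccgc
In Bnip3 the palindrome began 108 bases before the start site and was flanked by GCGTG cores on the opposite strand that began 117 and 99 bases before it. In Ankrd37 a match began 6 bases before the start site of the window, and in Egln3 the single match lay 229 bases before the start site. The Ankrd37 window lies inside the gene span (chromosome 8, 45996908 to 46000414). Its start site is thus not the 5′ end of that span. P4ha1 had 3 matches in its window (chr10:59323046-59323345). Kdm3a had 1 match in 1 of its 3 windows. Vegfa had 2 matches in a window inside the gene (chr17:46025114-46025413). Its other window, at the 5′ end of the gene (chr17:46032328-46032627), had none. The windows of genes that were higher and of genes that were not called in the knockout both held matches.

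Of the 10 genes, 6 were higher in the knockout at an adjusted p-value under 0.05 (edgeR), against 4.0% of all genes tested. They were Ndufa4l2, Bnip3, Ddit4, Egln3, Vegfa and P4ha1. None of the 10 was lower, against 5.21% of all genes, by edgeR or DESeq2 or at an unadjusted p-value under 0.05, where 0 were lower. In either direction 6 were called, against 9.21%. Bnip3l, Kdm3a, Egln1 and Ankrd37 were not called. The log2 fold change was above 0 for 8 genes, against 50.1% of all genes. The median log2 fold change was 0.65 over the 10 genes and 0.0002 over all tested genes. At the threshold of the study for a differentially expressed gene (DEG), an adjusted p-value under 0.01 with more than 2-fold change, Bnip3 and Ndufa4l2 were DEGs, both higher, against 0.571% of all genes that were higher and 0.990% in either direction. In CPM, both knockout libraries lay above both WT libraries for 8 genes and below them for 1, against 25.2% and 25.3% of all genes. Because the genes were chosen with this contrast known, nothing is read from these shares. All 10 genes passed the filter on low counts, Ndufa4l2 only through the knockout libraries, since both its WT counts were under 10. With at least 10 counts required of each library, 9 of the 10 genes were tested, 5 were called higher and 1 (Bnip3) was a DEG, and with DESeq2 1 was a DEG. With any 1 library left out, 6 genes were called higher.

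**Figure D1:**
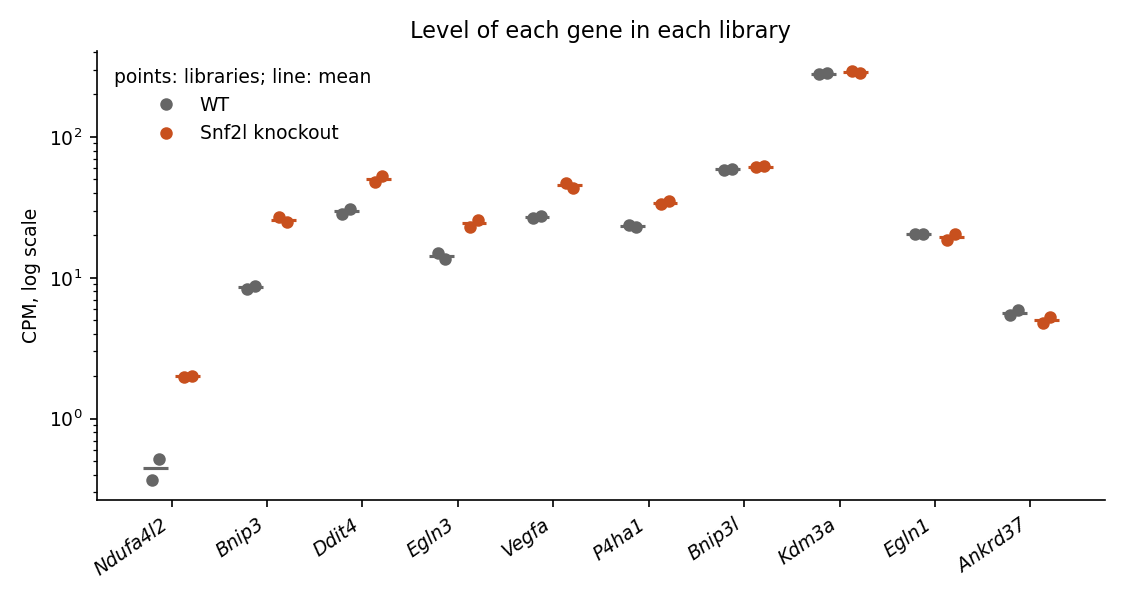
Level of each of the 10 genes in CPM (log axis), with 1 point for each library and a line for the mean of the 2 libraries of a genotype. The knockout points stand clear of the WT points for Ndufa4l2, Bnip3, Ddit4, Egln3, Vegfa and P4ha1, and lie at or beside the WT points for Bnip3l, Kdm3a, Egln1 and Ankrd37.

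Of the oxygen sensors of the group, Egln3 was called higher and Egln1 was not called, and the difference between them was not tested. Egln1 and Egln3 encode prolyl hydroxylases that mark HIF alpha subunits for degradation and are themselves HIF targets, which forms a negative feedback loop. Egln3 (Entrez gene 112407, chromosome 12, 54178981 to 54203874) had WT counts of 205 and 207 and knockout counts of 362 and 393, or 15.1 and 13.5 CPM against 23.1 and 25.6 CPM. The libraries of the genotypes did not overlap. Its mean rose from 14.3 ± 1.10 to 24.3 ± 1.77 CPM (SD, n = 2 each), or on the log2 scale by 0.77 (SE 0.126). Egln1 (Entrez gene 112405, chromosome 8, 124908587 to 124949254) had WT counts of 277 and 312 and knockout counts of 292 and 316. This is 20.3 and 20.4 CPM against 18.6 and 20.6 CPM, so that the knockout libraries lay on either side of the WT libraries. Its log2 fold change was -0.06 (SE 0.120) and it was not called. Neither gene shared exonic bases with another gene of the GENCODE M21 annotation. The level of Egln3 thus exceeded that of Egln1 in both knockout libraries and stayed below it in both WT libraries on the CPM scale, which takes no account of gene length (2662 bp for Egln3 and 3594 bp for Egln1). Per kb, Egln3 was at 5.37 ± 0.413 RPKM (CPM per kb of gene length) and Egln1 at 5.66 ± 0.0014 RPKM in WT, and they were at 9.14 ± 0.664 and 5.45 ± 0.384 RPKM in the knockout (SD, n = 2 each).

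Of the genes that act at mitochondria, Bnip3 and Ndufa4l2 had the largest differences of the group. Bnip3 and its relative Bnip3l (also called Nix) are receptors in the outer mitochondrial membrane that recruit the autophagy machinery. Bnip3 (Entrez gene 12176, chromosome 7, 138890836 to 138909506) had WT counts of 114 and 134 and knockout counts of 422 and 383. This corresponds to 8.37 and 8.74 CPM in WT and 26.9 and 24.9 CPM in the knockout, with the lower knockout library at 2.85 times the higher WT library. The mean rose from 8.56 ± 0.260 to 25.9 ± 1.4 CPM (SD, n = 2 each), or on the log2 scale by 1.6 (SE 0.131). Bnip3l (Entrez gene 12177, chromosome 14, 66985238 to 67008877) had WT counts of 796 and 912 and knockout counts of 962 and 950. Its levels of 58.5 and 59.5 CPM in WT and 61.3 and 61.8 CPM in the knockout did not overlap, but the log2 fold change was only 0.06 (SE 0.094) and it was not called. The transcripts of both genes have near-identical copies elsewhere. Bnip3 matched 5 other annotated genes over at least 100 bases at 95% identity or more, the longest over 858 bases at 98.3%, and Bnip3l matched the pseudogene Bnip3l-ps over 663 bases at 99.2%. The copies examined for Bnip3 (the 3 longest) and Bnip3l-ps have no row of their own in the count table, and the assignment of some reads is uncertain. An antisense gene without a row, Gm45507, shares 504 exonic bases (22.3%) with Bnip3, and its reads cannot be told apart where counting ignores strand.

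Ndufa4l2 encodes a mitochondrial protein related to NDUFA4, a subunit associated with cytochrome c oxidase. It was the least abundant gene of the group. Ndufa4l2 (Entrez gene 407790, chromosome 10, 127509274 to 127517154) had 5 and 8 counts in WT and 31 counts in both knockout libraries. These are 0.367 and 0.522 CPM against 1.98 and 2.02 CPM, without overlap. The log2 fold change was 2.13 (SE 0.374), the largest difference and the largest standard error of the group. It passed the filter only through the knockout libraries. It shares 32 exonic bases (2.92%) with Shmt2 on the opposite strand, which had between 4163 and 5667 counts and a log2 fold change of 0.23 (SE 0.083, adjusted p = 0.107 in edgeR). Its relative Ndufa4 was far more abundant, with WT counts of 1875 and 2376 and knockout counts of 2386 and 2795. The log2 fold change of Ndufa4 was 0.19 (SE 0.104, adjusted p = 0.310 in edgeR) and its libraries overlapped between genotypes. Without knockout replicate 1, Ndufa4 was called higher, at 0.31 on the log2 scale.

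Vegfa, Ddit4 and P4ha1 differed between genotypes by smaller amounts. Vegfa encodes a secreted growth factor of the blood vessel endothelium. Vegfa (Entrez gene 22339, chromosome 17, 46016993 to 46032377) had WT counts of 361 and 424 and knockout counts of 741 and 670. It rose from 27.1 ± 0.809 to 45.4 ± 2.57 CPM (SD, n = 2 each), or on the log2 scale by 0.74 (SE 0.106). Its single libraries were at 26.5 and 27.7 CPM in WT and 47.2 and 43.6 CPM in the knockout, so that the genotypes stood apart. Ddit4, also known as REDD1, restrains the growth kinase complex mTORC1 through TSC1 and TSC2, and is induced by hypoxia and by other stresses. Ddit4 (Entrez gene 74747, chromosome 10, 59949675 to 59951770) had WT counts of 386 and 473 and knockout counts of 754 and 816. The levels of 28.4 and 30.9 CPM in WT and 48.1 and 53.1 CPM in the knockout gave a log2 fold change of 0.77 (SE 0.108). P4ha1 encodes a catalytic subunit of the prolyl hydroxylase that modifies collagen, an enzyme that consumes oxygen. P4ha1 (Entrez gene 18451, chromosome 10, 59323197 to 59373304) had WT counts of 325 and 352 and knockout counts of 526 and 536. It was at 23.9 and 23.0 CPM in WT and at 33.5 and 34.9 CPM in the knockout, and its log2 fold change of 0.55 (SE 0.109) was the smallest of the 6 genes called. In each of these 3 genes the lower knockout library exceeded the higher WT library, by 1.58-fold for Vegfa, 1.56-fold for Ddit4 and 1.4-fold for P4ha1. P4ha1 and Ddit4 lie within 1 Mb of each other on chromosome 10, and 0 of these 3 genes shared exonic bases with another gene.

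Kdm3a and Ankrd37 were not called. Kdm3a encodes a histone lysine demethylase that requires oxygen. Kdm3a (Entrez gene 104263, chromosome 6, 71588970 to 71632990) had WT counts of 3783 and 4356 and knockout counts of 4587 and 4377. Its levels of 278 and 284 CPM in WT and 292 and 285 CPM in the knockout differed by a log2 fold change of 0.04 (SE 0.084), the smallest standard error of the group. The knockout libraries lay just above the WT libraries. Ankrd37 encodes an ankyrin repeat protein. Ankrd37 (Entrez gene 654824, chromosome 8, 45996908 to 46000414) had WT counts of 74 and 90 and knockout counts of 75 and 81. It was at 5.44 and 5.87 CPM in WT and 4.78 and 5.27 CPM in the knockout, the only gene of the 10 with both knockout libraries below both WT libraries. Its log2 fold change was -0.17 (SE 0.178). Ankrd37 shares 349 exonic bases (22.7%) with Lrp2bp and 57 with Ufsp2, both on the opposite strand. Lrp2bp had between 8 and 13 counts in each library. Ufsp2 had between 406 and 652 counts and a log2 fold change of -0.59 (SE 0.107, adjusted p = 2.37e-03 in edgeR).

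**Figure D2:**
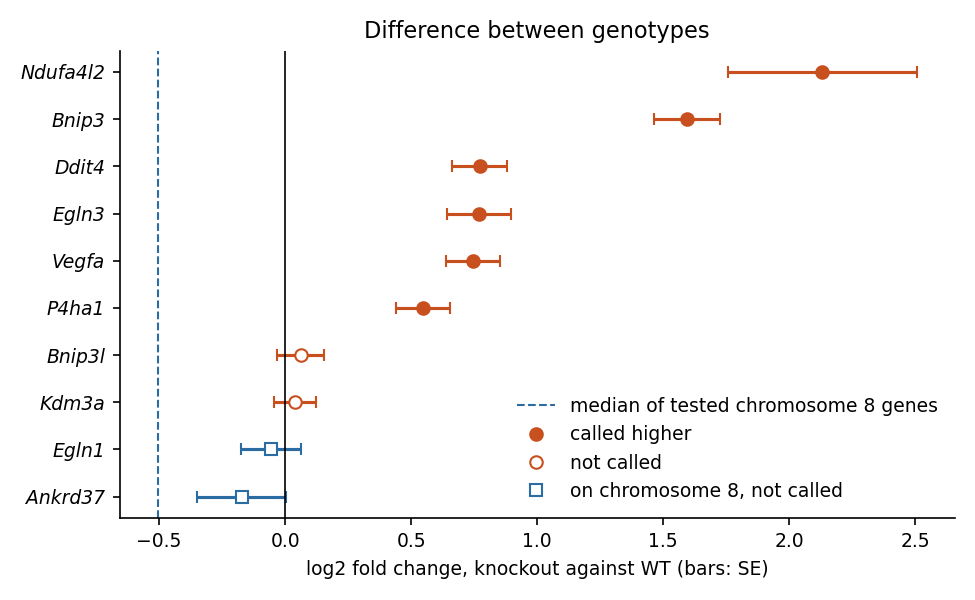
Log2 fold change between knockout and WT for the 10 genes, with SE bars from the edgeR fit. Filled symbols are genes called higher, open symbols are genes not called, squares lie on chromosome 8, and the dashed line marks the median of chromosome 8 at -0.51. Egln1 and Ankrd37 lie near 0 and to the right of that median.

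The chromosome that carries Egln1 and Ankrd37 was itself lower in the knockout line, and the values of both genes were therefore set beside those of their neighbours. The median log2 fold change of 754 tested genes on chromosome 8 was -0.51, with the central part of the distribution, between its quartiles, from -0.63 to -0.35. Egln1 stood 0.45 above this median and higher than 92.6% of the tested chromosome 8 genes. Ankrd37 stood 0.33 above it and higher than 88.3% of them. In a fit in which the chromosome 8 shift was removed as an offset, Egln1 was at 0.45 and was called higher, while Ankrd37 was at 0.33 and was not called. That fit brought the number of the 10 genes called higher from 6 to 7. In the same fit 445 genes were higher and 217 lower over the whole genome, against 553 and 721 without the offset. The other chromosomes of the group had medians between -0.07 (chromosome 14) and 0.056 (chromosome 7), so that the other 8 genes changed little when set relative to them. The 6 tested genes of chromosome Y had a median of -4.57. Whether a gene on chromosome 8 should be read with or without the shift cannot be told from these counts.

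**Figure D3:**
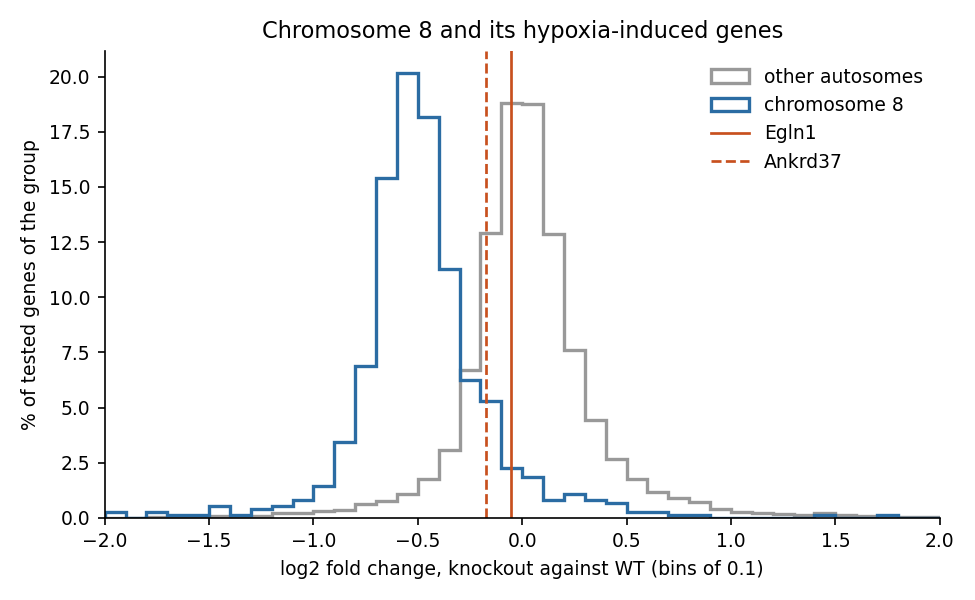
Distribution of log2 fold changes between knockout and WT over tested genes of chromosome 8 (blue) and of the other autosomes (grey), as percent of genes in bins of 0.1, with genes beyond the axis not drawn. The vertical lines mark Egln1 at -0.06 and Ankrd37 at -0.17, in the upper tail of the chromosome 8 genes.

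Within WT cells the levels of the group, per kb of gene length, spanned nearly 2 orders of magnitude. Kdm3a was highest with 34.2 ± 0.541 RPKM, followed by Ddit4 with 16.9 ± 1.01, Bnip3l with 15.3 ± 0.188 and Vegfa with 6.32 ± 0.189 RPKM (SD, n = 2 each). P4ha1 (5.69 ± 0.156), Egln1 (5.66 ± 0.0014) and Egln3 (5.37 ± 0.413 RPKM) followed, and the range of the WT libraries overlapped between P4ha1 and Egln1. Bnip3 (3.78 ± 0.115) and Ankrd37 (3.67 ± 0.200 RPKM) also overlapped, and Ndufa4l2 was lowest with 0.406 ± 0.0999 RPKM. Egln1 and Egln3 differed by less than the SD of Egln3. All other neighbours in this order were separate beyond their spread in WT. The genes called higher in the knockout were thus found at high, middle and low levels. In the knockout Bnip3 moved from place 8 to place 4 with 11.4 ± 0.616 RPKM, and Egln1 from place 6 to place 8. These orders are descriptions of libraries and were not tested.

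**Figure D4:**
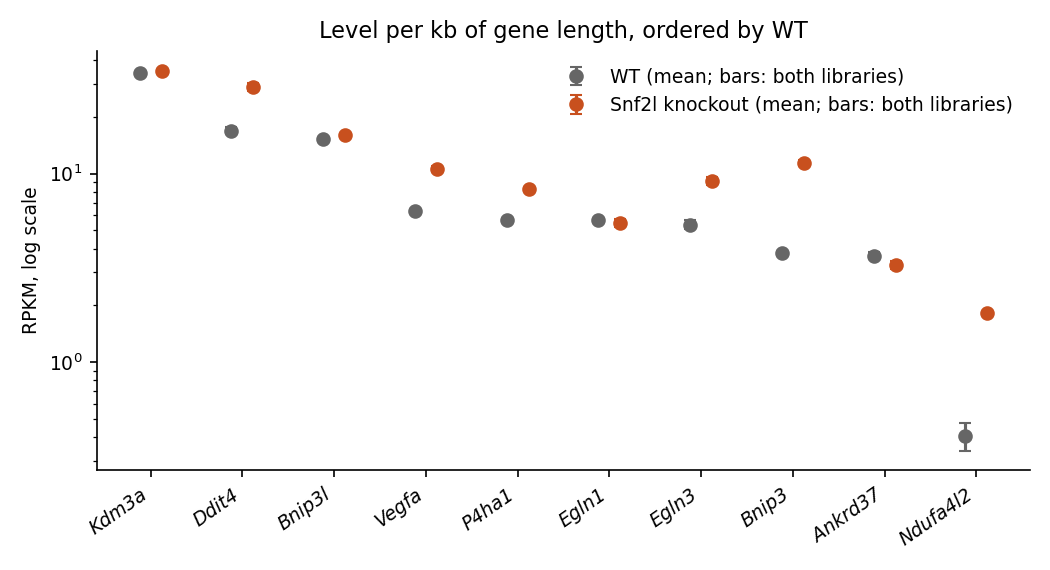
Level of each gene per kb of length (RPKM, log axis), ordered by the WT mean, with bars spanning both libraries of a genotype. WT levels run from 34.2 RPKM for Kdm3a to 0.406 RPKM for Ndufa4l2, and the largest change of place is that of Bnip3.

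To see whether the regulators of these genes differed between genotypes, the transcripts of HIF subunits and of the oxygen-sensing machinery were compared. Of 16 such genes, 0 were higher at an adjusted p-value under 0.05 (edgeR), with 1 at an unadjusted p-value under 0.05 and 0 by DESeq2. At an unadjusted p-value under 0.05, 2 were lower. Arnt2, a relative of the HIF partner ARNT, was lower, as 1 of 16, where 4.0% of all genes were higher and 5.21% lower. The median of the list was 0.02 on the log2 scale. Hif1a, the alpha subunit of HIF-1, had WT counts of 2679 and 2645 and knockout counts of 2599 and 2371, with a log2 fold change of -0.21 (SE 0.095, adjusted p = 0.215 in edgeR). In CPM, both its knockout libraries lay below both WT libraries. Epas1, the alpha subunit of HIF-2, had WT counts of 635 and 655 and knockout counts of 938 and 805. Its log2 fold change of 0.33 (SE 0.106) had an edgeR adjusted p of 0.0699, both knockout libraries lay above both WT libraries, and it was called higher without knockout replicate 2 (0.42). Vhl, the substrate receptor of the ligase, was at -0.07 (SE 0.115), Egln2, the remaining prolyl hydroxylase, at 0.14 (SE 0.115), and Hif1an, the asparaginyl hydroxylase of HIF, at -0.10 (SE 0.094). The edgeR adjusted p-values of these 3 genes were 0.796, 0.542 and 0.582. In a fit with the replicate number as a block, Hif1a was called lower and Epas1 higher. Arnt2 had WT counts of 81 and 98 and knockout counts of 72 and 45, with a log2 fold change of -0.71 (SE 0.213, adjusted p = 0.0493 in edgeR). The call of Arnt2 was lost without WT replicate 2 or knockout replicate 2 (the log2 fold change ranged from -1.07 to -0.43 over the libraries left out) and under 5 other settings. Without knockout replicate 1, 1 gene of the list was higher and 2 were lower, and without knockout replicate 2, 1 was higher and 0 were lower. HIF activity is controlled mainly through protein stability, which transcript levels do not measure.

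Other HIF targets outside glycolysis were taken from a longer list of 35 genes, of which 34 were tested and Adm was not. Of these, 9 were higher and 1 was lower at an adjusted p-value under 0.05 in edgeR, against 4.0% and 5.21% of all genes, and the median was 0.27 on the log2 scale. Both knockout libraries lay above both WT libraries for 19 genes and below them for 4, against 25.2% and 25.3% of all genes. Loxl2, an enzyme that crosslinks collagen, rose from 4.43 ± 0.176 to 11.3 ± 0.713 CPM (SD, n = 2 each), with a log2 fold change of 1.36 (SE 0.163, adjusted p = 1.51e-04 in edgeR). Its WT counts were 62 and 66, below the knockout counts of 170 and 182. Ccng2, an atypical cyclin, and Stc2, a secreted glycoprotein, rose by 0.75 (SE 0.158) and 0.72 (SE 0.116). These 3 genes were called with any 1 library left out. Other genes that rose were Ndrg1, Bhlhe40, Ak4, Gys1 and Rragd, with log2 fold changes between 0.43 and 0.68. Fewer genes of the list were called higher without WT replicate 1 or WT replicate 2, and more without knockout replicate 1. The gene that fell was Hmox1, an inducible heme oxygenase, at -0.61 (SE 0.094, adjusted p = 8.04e-04 in edgeR). Hmox1, named after its values were seen, lies on chromosome 8, and the call was lost when the shift of that chromosome was removed. The classical hypoxia marker Car9, also named after its values were seen, had between 8 and 14 counts in every library and was not called.

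Glycolytic HIF targets provided a comparison with the branch that the group leaves out. Of 22 genes of glycolysis and glucose transport, 9 were higher, against 4.0% of all genes, and 0 were lower in edgeR, with 0 lower at an unadjusted p-value under 0.05 and 0 by DESeq2. The median was 0.24 on the log2 scale. The largest differences were those of the triose phosphate isomerase Tpi1 (0.83, SE 0.095, adjusted p = 8.79e-05 in edgeR) and the aldolase Aldoa (0.63, SE 0.080, adjusted p = 2.22e-04 in edgeR). Pfkfb3, a regulator of glycolytic flux, and the glucose transporter Slc2a1 followed at 0.51 (SE 0.122) and 0.40 (SE 0.083). DESeq2 called 6 genes of this list higher, and Pfkfb3 was not called by it. With the chromosome 8 shift removed, 7 genes of the list were higher. The number of glycolytic genes called was 2 without WT replicate 1 and 4 without WT replicate 2, and Pfkfb3 and Slc2a1 were not called without WT replicate 1. Because the 10 genes were chosen with this contrast known, the stability of their calls is not set against that of this list. The difference between these lists was not tested.

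**Figure D5:**
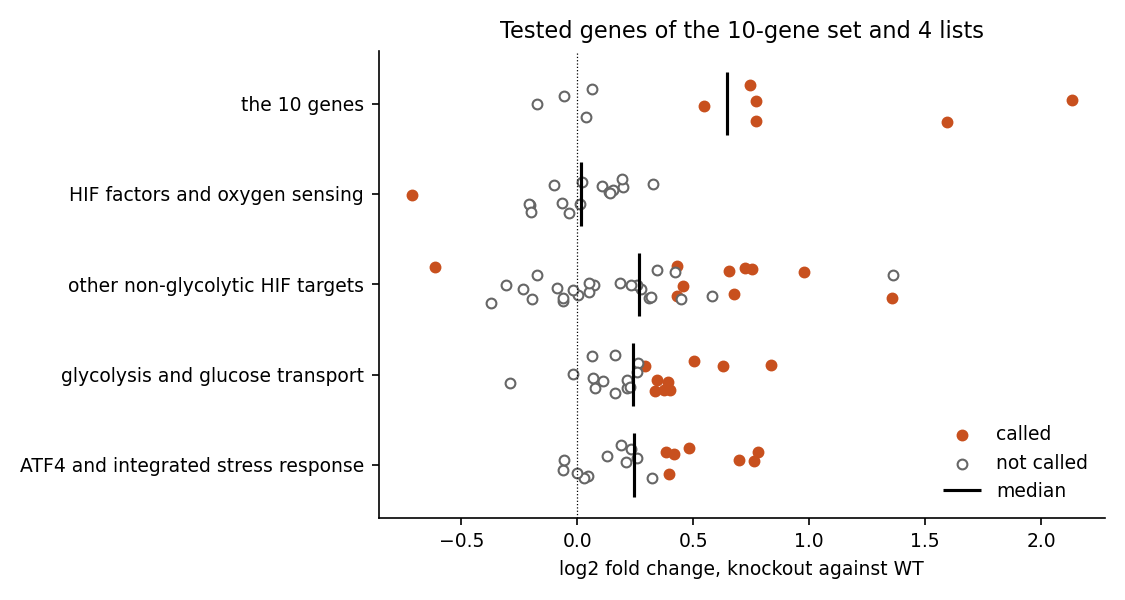
Log2 fold change between knockout and WT for the tested genes of 5 lists, with filled points for genes called at an adjusted p-value under 0.05, open points for the rest and a black line at each median (points are spread vertically for legibility). The medians are 0.65 for the 10 genes, 0.02 for HIF factors and oxygen sensing, 0.27 for other non-glycolytic HIF targets, 0.24 for glycolysis and 0.24 for ATF4 and stress response genes.

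The partners through which members of the group act were examined next. Of 14 genes of mitophagy, the process that BNIP3 and NIX serve, 1 was higher and 0 were lower in edgeR, against 4.0% and 5.21% of all genes, with 2 lower at an unadjusted p-value under 0.05 and 0 by DESeq2. The gene was Gabarapl2, a ubiquitin-like protein of the autophagosome to which such receptors bind. It had WT counts of 724 and 858 and knockout counts of 1154 and 1084, with a log2 fold change of 0.40 (SE 0.095, adjusted p = 0.0147 in edgeR). This value stood 0.91 above the median of chromosome 8, and the gene was still called with the shift of that chromosome removed. Gabarapl2 lies on chromosome 8, against the direction of that chromosome, and its call was lost without WT replicate 1 or WT replicate 2 (0 genes of the list called higher in each case, with the log2 fold change of Gabarapl2 between 0.36 and 0.44 over the libraries left out). Without knockout replicate 1, 2 genes of the list were higher, and without knockout replicate 2, 1 was lower. Of 10 genes around DDIT4 and mTORC1, 1 was higher and 0 were lower in edgeR, against the same shares of all genes, with 1 lower at an unadjusted p-value under 0.05 and 0 by DESeq2. This was Sesn3, a sestrin that restrains mTORC1, at 0.37 (SE 0.102, adjusted p = 0.0356 in edgeR). Its call was lost without WT replicate 1, WT replicate 2 or knockout replicate 1, which left 0 genes of the list called higher, and under 3 other settings. Without knockout replicate 1, 1 gene of this list was lower. Of 8 tested paralogs of the group 0 were called in edgeR or DESeq2, with 3 at an unadjusted p-value under 0.05. With 1 library left out, up to 2 of them were called higher, the most without knockout replicate 1, against 1 without WT replicate 1 or knockout replicate 2, and 1 was lower without knockout replicate 2.

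Some of the receptors for VEGF family ligands differed between genotypes, in both directions, and the others were not called. Of 9 other ligands and receptors, 2 were higher and 1 was lower in edgeR, against 4.0% and 5.21% of all genes. Kdr and Flt1 encode the main receptor tyrosine kinases for VEGFA. Kdr had WT counts of 17 and 17 and knockout counts of 63 and 43, and Flt1 had WT counts of 11 and 19 and knockout counts of 51 and 42. Their log2 fold changes were 1.53 (SE 0.291, adjusted p = 3.43e-03 in edgeR) and 1.52 (SE 0.299, adjusted p = 4.22e-03 in edgeR), and both were below 4 CPM in the mean of each genotype. The coreceptor Nrp2 went down from 78.7 ± 6.84 CPM to 34.7 ± 4.23 CPM (SD, n = 2 per genotype), with a log2 fold change of -1.18 (SE 0.112, adjusted p = 1.98e-05 in edgeR). Kdr and Flt1 are not among the 6 endothelial markers given above, of which 4 were tested and 0 were called. The sum of those markers was mostly Pecam1, and the part of endothelial cells in the levels of Kdr and Flt1 was not tested.

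Ddit4 and Vegfa are also targets of ATF4, the transcription factor of the integrated stress response, and a list of 18 genes of that response was set beside the group. Of these, 7 were higher, against 4.0% of all genes, and 0 were lower in edgeR, with 0 lower at an unadjusted p-value under 0.05 and 0 by DESeq2. Nupr1, a stress-induced chromatin protein, rose by 0.78 (SE 0.114, adjusted p = 5.94e-04 in edgeR), and Pck2, the mitochondrial PEP carboxykinase, by 0.76 (SE 0.096, adjusted p = 2.06e-04 in edgeR). Cth, which makes cysteine, rose by 0.70 (SE 0.091). Atf4 itself had WT counts of 4351 and 5293 and knockout counts of 6694 and 7694, a log2 fold change of 0.48 (SE 0.095, adjusted p = 4.36e-03 in edgeR). Atf4 was not called without WT replicate 1, where 3 genes of the list were called, against 4 without WT replicate 2. The part of this response in the levels of Ddit4 and Vegfa was not tested.

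The genes nearest in pattern to Ndufa4l2, the member with the largest fold change, were Lef1, Prmt8 and Igf2. Nearness was measured as the Euclidean distance of log2 CPM, centred on each gene, over the 4 libraries, and was 0.194, 0.208 and 0.287. Lef1 had WT counts of 65 and 82 and knockout counts of 323 and 294, and Prmt8 had 54 and 91 against 275 and 248. Igf2 had WT counts of 151 and 182 and knockout counts of 693 and 578. Each had a log2 fold change close to that of Ndufa4l2, between 1.75 and 1.97, and over 4 libraries the measure tells little beyond the difference between genotypes.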

How the data were processed

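Poly(A) RNA-seq libraries of WT and Snf2l knockout mESCs (2 each) were grouped by their titles. The authors aligned reads to mm10 with QuasR (HISAT2) and deposited raw counts for each gene of UCSC Known Genes, with gene lengths. The labels name a stranded TruSeq kit and the methods another, and strand use in counting is not stated. Replicates are described as independent, and no further origin is given. P-values measure the spread between these libraries. Entrez identifiers were matched to RefSeq (GRCm38.p6) for 24570 of 24594 genes.

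Counts were fitted in R 4.3.3 with edgeR 4.0.16 (filterByExpr with minimum count 10, TMM factors, legacy glmQLFit and glmQLFTest, genotype as the only term, two-sided). P-values were adjusted by Benjamini-Hochberg over 13840 genes, and a gene with an adjusted p under 0.05 was called. SEs were derived from the fold change and F statistic. CPM used TMM-scaled library sizes, and RPKM is CPM per kb of the deposited length. Counting error alone limits genes with few counts. The procedure was tested on simulated data. Exon overlaps and similar transcripts (BLAST 2.17.0) came from GENCODE M21. The 10 genes and all lists were chosen with earlier results of these data known. Besides the 10 genes, the text names Smarca1, Hif1a, Epas1, Vhl, Egln2, Hif1an, Ndufa4, up to 4 called genes per list with the largest change (1 of them is not reported here), and the 3 genes nearest to the member with the largest change. Single marker genes, the remaining HIF targets that were called and overlapping or similar genes were named after their values were seen. Alternatives were other scalings, filters and fits, DESeq2 1.42.0, a replicate block, removal of the chromosome 8 shift, and each library left out, where a lone library is assumed to vary like the other genotype.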

Additional observations from a re-analysis of the deposited data

How the results depend on the processing

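Of 139 alternative values of the log2 fold changes of the 10 genes, 136 kept their direction and their side of the threshold and 3 changed direction, namely Egln1 (0.45) and Ankrd37 (0.33) with the chromosome 8 shift removed and Egln1 without knockout replicate 1 (0.017, against -0.13 without knockout replicate 2). Ndufa4l2 ranged from 1.92 to 2.41 and Bnip3 from 1.54 to 1.65. The number of the 10 genes that were DEGs was 1 with DESeq2 and 1 with at least 10 counts in every library, which leaves Ndufa4l2 untested. Without gene length 2 genes changed place in the order of WT levels. For 40 other named genes, 506 of 559 values kept direction and side, 45 were weaker, 6 were stronger and 2 changed direction, which were Vhl (from -0.15 without WT replicate 2 to 0.015 without WT replicate 1) and Egln2 (from -0.0136 without knockout replicate 2 to 0.275 without knockout replicate 1).

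Of HIF factors, 1 was higher and 0 lower with upper-quartile factors, and 0 were lower with library size alone, DESeq2, a filter of at least 1 count or the chromosome 8 shift removed. Of the mTORC1 list 0 were higher with DESeq2, the filter of at least 1 count and the shift removed, and with the shift removed 0 other HIF targets were lower. Over all genes DESeq2 called 300 higher and 88 DEGs, against 553 and 137, and removal of the shift left 217 lower, against 721. The causes were not tested, beyond the shift itself.

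With 1 library left out, counts ranged from 0 to 1 higher and 0 to 2 lower for HIF factors, 2 to 10 higher for glycolysis, 0 to 2 higher and 0 to 1 lower for mitophagy, 0 to 1 higher and 0 to 1 lower for mTORC1, 0 to 2 higher and 0 to 1 lower for paralogs, 3 to 7 higher for ATF4 genes, and 318 to 817 higher and 511 to 1115 lower over all genes.

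The shared replicate numbers rest on 2 pairs, whose deviations correlated at 0.196 across genes, and do not establish a pairing. With the replicate number as a block, 6 of the 10 genes were higher and 2 were DEGs. In the same blocked fit, 3 HIF factors were higher and 3 lower, 16 other HIF targets higher and 2 lower, 14 glycolytic genes higher, 2 mitophagy genes higher and 1 lower, 2 mTORC1 genes higher and 1 lower, 4 paralogs higher and 1 lower, and 12 ATF4 genes higher. Over all genes it gave 1610 higher, 1861 lower and 223 DEGs.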
